A study of Mus musculus with 24 samples.

Results

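The genes described here are 9 that encode the constant parts of mouse antibodies and their joining chain, measured by RNA sequencing in splenic CD4+ T cell preparations. They are the heavy chain constant genes Ighm, Ighd, Ighg1, Ighg2b, Ighg2c, Ighg3 and Igha, the kappa light chain constant gene Igkc, and Jchain. They were taken by symbol from a table of raw read counts for 54446 genes, and their read levels and isotype shares over both genotypes and all times were part of how they were chosen, so those values are given as a description and no p-value is given for them. All 9 passed the filter on low counts, as did 15325 genes in all, and Ighd (37 to 329 counts per library), Ighg1 (from 9) and Ighg2c (from 21) reached the lowest counts.

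The cells came from C57BL/6 mice, either wild type (WT) or lacking the cytosolic DNA sensor AIM2 in the whole animal (Aim2-/-). CD4+ T cells were enriched from spleen by immunomagnetic negative selection, in which other cells are removed with antibodies, and this step rather than a sort defined the population. Control cells (0 h) and cells cultured with antibodies to CD3 and CD28 for 3, 6 or 24 h gave 8 groups of 3 libraries, 24 in all, and each mouse (WT 1, 3 and 4, Aim2-/- 1, 2 and 4) contributed 1 library at every time. Ages were not given in the sources used here.

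An antibody is built from heavy and light chains whose variable ends are joined by recombination in developing B cells. A naive B cell splices its variable exon to the mu or the delta constant region, giving IgM and IgD. After activation, class switch recombination moves the same variable exon to a downstream gamma, epsilon or alpha constant gene, with T helper cells supplying CD40 ligand and cytokines. Plasma cells then secrete very large amounts of antibody and devote much of their mRNA to it. T cells rearrange other receptor genes and do not make antibody. Counts by gene do not separate complete antibody mRNA from other transcripts of a constant gene, and which of these the reads came from was not tested.

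The heavy chain genes lie on the minus strand of chromosome 12 in the mouse build GRCm38, from Igha (start 113254830) to the end of Ighm (113422730), in an order that runs, along the direction of transcription, Ighm, Ighd, Ighg3, Ighg1, Ighg2b, Ighg2c and Igha. Igkc lies on chromosome 6 (70726435 to 70726966, plus strand) and Jchain, a protein-coding gene outside both antibody loci, on chromosome 5 (88519809 to 88527891, minus strand). In the annotation the sole overlap of these genes with another was of Igkc with the noncoding gene Gm30211, with 0 exon bases shared.

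The last 63 coding bases of the secreted form are shown for 3 of the genes because they carry the feature that ties Jchain to its isotypes. The secreted tails of IgM and IgA end in a cysteine, next to the last amino acid, to which the J chain is joined in background knowledge, and IgG has no such tail. In-frame cysteine codons are in capitals, and each sequence runs 5′ to 3′ on the minus strand. Ighm spans chr12:113420867-113420929, Igha chr12:113258768-113258830 and Ighg1 chr12:113328976-113329038, all coding exon.
Ighm: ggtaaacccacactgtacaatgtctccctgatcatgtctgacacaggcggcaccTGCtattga
Igha: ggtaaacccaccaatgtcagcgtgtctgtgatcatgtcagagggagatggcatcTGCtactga
Ighg1: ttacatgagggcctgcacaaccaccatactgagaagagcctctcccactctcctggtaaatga
The Ighm and Igha ends each hold 1 such codon and the Ighg1 end holds 0, as do the same stretches of Ighg2b, Ighg2c and Ighg3.

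The hinge exons, which join the arms of an IgG molecule to its stem, are shown because the 4 IgG genes are the most alike of these genes and their reads had to be told apart. They lie at chr12:113329844-113329882 (Ighg1), chr12:113307261-113307326 (Ighg2b), chr12:113288263-113288325 (Ighg2c) and chr12:113360529-113360576 (Ighg3), again with in-frame cysteine codons in capitals.
Ighg1: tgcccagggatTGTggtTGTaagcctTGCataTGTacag
Ighg2b: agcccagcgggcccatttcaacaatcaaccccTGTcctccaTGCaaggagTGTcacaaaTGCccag
Ighg2c: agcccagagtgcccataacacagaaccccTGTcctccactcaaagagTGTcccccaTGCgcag
Ighg3: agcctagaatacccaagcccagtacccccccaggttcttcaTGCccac
They differ in length, from 39 to 66 bases, and hold 4, 4, 3 and 1 cysteine codons in that order. Over the whole coding sequence Ighg2b and Ighg2c were 85.9% identical, whereas the other IgG pairs ranged from 75.8% to 77.7% and Ighm and Igha were 61.2% identical. Of all 51-base words in the exons, the length of 1 read, 5.26% of those of Ighg2c and 4.00% of those of Ighg2b also occurred in another gene, against 1.54% for Ighg3, 0.354% for Ighg1, 0.288% for Jchain and 0 for the other members. Reads of Ighg2b and Ighg2c are therefore the most exposed of the set to such sharing, and the treatment of shared reads was not given in the sources used here.

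The targeted gene was examined first. Aim2 was at 75.0, 50.7, 33.0 and 34.0 CPM (counts per 1e6 counts, on library sizes scaled by the TMM method) in WT 3 at 0, 3, 6 and 24 h, and at 67.5, 52.3, 32.5 and 38.7 CPM in WT 4. In WT 1 it was at 21.5, 17.0, 11.5 and 5.57 CPM, inside or next to the Aim2-/- ranges of 15.7 to 20.1, 14.6 to 15.1, 8.18 to 11.4 and 5.28 to 7.15 CPM. The libraries labelled WT 1 thus go against their label for Aim2, and the fitted differences between genotypes at 0 h, their medians and the list counts are also given without them. Library totals ranged from 19715161 to 21627018 counts, and 3 counts, taken as the floor, correspond to 0.129 to 0.155 CPM. Because these are bulk samples, fewer cells of a type and less RNA per cell cannot be told apart. The p-values rest on a spread shared by all 24 libraries of this collection, with libraries of the same mouse counted as separate.

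In unstimulated cells the antibody genes were far higher in the Aim2-/- than in the WT preparations. The 9 genes together took 0.105 to 0.299% of all counts in the WT libraries and 1.09 to 1.74% in the Aim2-/- libraries. Ighm, the mu heavy chain, was at 738, 556 and 341 CPM in WT 1, 3 and 4 and at 6050, 4332 and 4895 CPM in Aim2-/- 1, 2 and 4. The lowest Aim2-/- library was thus 5.87 times the highest WT library, and the fitted log2 fold change was 3.22 ± 0.42 (SE, n = 3 per group), or 3.51 ± 0.38 without WT 1. Igkc, the constant part of most mouse light chains, was at 968, 363 and 367 CPM in WT and at 6338, 3898 and 5216 CPM in Aim2-/-. Its groups did not overlap either, WT 1 stood above the other WT mice, and the log2 fold change was 3.19 ± 0.69 with WT 1 and 3.82 ± 0.55 without it.

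Among the switched isotypes, Ighg2b was at 176, 28.3 and 74.5 CPM in WT and at 1342, 857 and 688 CPM in Aim2-/-. Ighg2c, the C57BL/6 counterpart of the Ighg2a gene of other strains, was at 135, 26.5 and 51.9 CPM in WT and at 1042, 587 and 638 CPM in Aim2-/-. For both genes every Aim2-/- library lay above every WT library, with log2 fold changes of 3.37 ± 0.86 and 3.41 ± 0.77, or 4.23 ± 0.67 and 4.27 ± 0.76 without WT 1. Ighg3 showed the tightest Aim2-/- group, at 657, 564 and 663 CPM, against 60.1, 32.4 and 119 CPM in WT, where WT 4 and not WT 1 was the highest (log2 fold change 3.16 ± 0.55, or 3.05 ± 0.68 without WT 1). Ighg1 was at 132, 0.879 and 36.7 CPM in WT and at 612, 248 and 257 CPM in Aim2-/-. Its WT libraries spanned over 2 orders of magnitude, so the log2 fold change carried a large error, 2.72 ± 1.29 with WT 1 and 4.31 ± 1.57 without it.

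Igha and Ighd stood apart from the rest. Igha, the alpha heavy chain of mucosal antibody, was at 692, 69.8 and 91.0 CPM in WT and at 869, 485 and 1556 CPM in Aim2-/-. WT 1 lay inside the Aim2-/- range, and the log2 fold change of 1.77 ± 1.16 became 3.59 ± 0.63 without that mouse. Ighd, the delta chain that marks mature naive B cells, was at 3.85, 2.95 and 2.54 CPM in WT and at 8.38, 2.02 and 2.90 CPM in Aim2-/-. Here the groups overlapped, the 1 higher library was that of Aim2-/- 1, and the log2 fold change was 0.51 ± 0.55, or 0.69 ± 0.61 without WT 1. Jchain, which links IgM and IgA into polymers, was at 157, 48.4 and 35.9 CPM in WT and at 717, 364 and 686 CPM in Aim2-/-, a log2 fold change of 2.87 ± 0.84, or 3.81 ± 0.64 without WT 1.

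**Figure D1:**
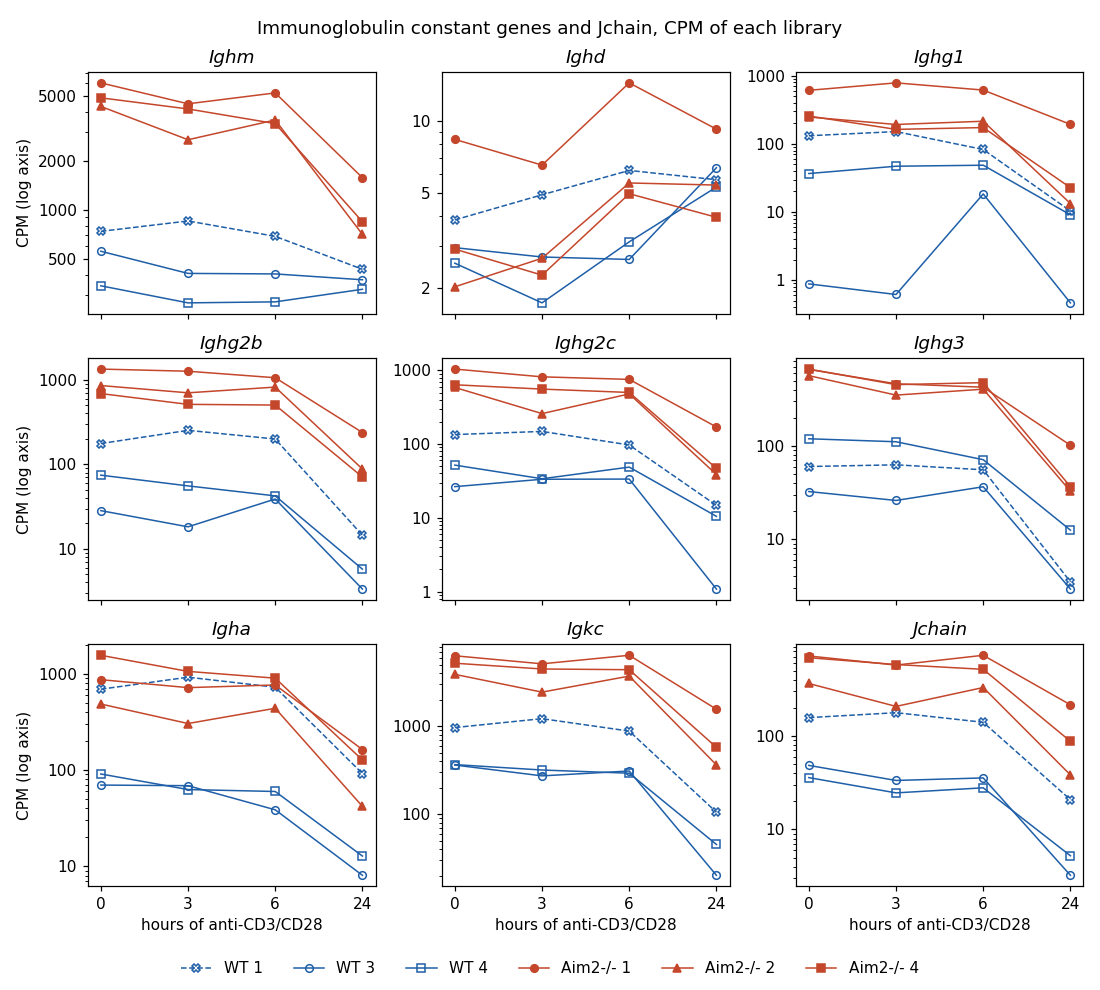
CPM (vertical log axis, counts per 1e6 counts) of each of the 9 genes against hours of stimulation (0, 3, 6 and 24, drawn at even steps); each line joins the 4 libraries of 1 mouse, WT in blue with open symbols (WT 1 dashed) and Aim2-/- in red with filled symbols. The red lines lie above the blue ones in every panel except Ighd and Igha, and in every panel except Ighd most mice lie lower at 24 h than at 6 h.

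The same picture held during stimulation. At each of the 4 times 7 of the 9 genes had all Aim2-/- libraries above all WT libraries, the exceptions being Ighd and Igha, while 14.1%, 7.8%, 18.6% and 11.1% of all tested genes did so at 0, 3, 6 and 24 h. The mean was higher in Aim2-/- for all 9 genes at every time. With edgeR's quasi-likelihood test at an adjusted p under 0.05, 5, 2, 6 and 3 of the 9 were called higher at 0, 3, 6 and 24 h, beside 3.24%, 0.254%, 8.78% and 0.659% of all tested genes. These counts come from the contrasts that chose the genes, and nothing is read from them. Over the 9 genes the median log2 fold change was 3.16, 2.66, 3.00 and 3.28 at the 4 times, or 3.81, 3.76, 3.81 and 3.88 without WT 1, beside medians over all tested genes of -0.01, 0.00, 0.05 and 0.01.

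Levels between genes were compared as CPM per kilobase of the shortest complete transcript. At 0 h Igkc led in both genotypes, with 1064 ± 655 CPM per kb (SD, n = 3) in WT and 9681 ± 2295 in Aim2-/-, and Ighm came next, with 365 ± 133 and 3411 ± 587. In WT Ighm did not lie clear of Igha (258 ± 321), and none of the neighbours from Igha down to Ighd were clear of each other, the Ighg1 range of 0.82 to 122 crossing the 3.16 to 4.80 of Ighd. In Aim2-/- Ighm lay clear of Igha (882 ± 493), followed by Ighg2b (864 ± 305), Ighg2c (680 ± 224) and Ighg3 (581 ± 51.4), each of which overlapped the next. Ighg3 lay just clear of Jchain (423 ± 140), which overlapped Ighg1 (346 ± 193), and Ighd, at 5.53 ± 4.29, lay clear below them all. Ighd thus held the last place in both genotypes, and Ighm counts exceeded Ighd counts by 134 to 192 times in WT and by 722 to 2146 times in Aim2-/-.

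Before 24 h the composition of the heavy chain reads varied more among the WT mice than between the genotype means. The share of a gene is its percentage of the summed counts of the 7 heavy chain genes, which numbered 7411 to 218493 per library, so that the widest 95% Wilson interval was 1.85 percentage points and covers counting error only. Ighm made up 38.1%, 77.6% and 47.6% of the heavy chain counts in WT 1, 3 and 4 at 0 h, and 57.2%, 61.2% and 56.3% in Aim2-/- 1, 2 and 4. The summed share of the switched isotypes (the 4 IgG genes and Igha) was 61.7%, 22.0% and 52.1% in WT and 42.7%, 38.7% and 43.7% in Aim2-/-. Its mean was 45.3% ± 20.7 (SD, n = 3) in WT and 41.7% ± 2.63 in Aim2-/-, a difference of -3.53 points that lies well within the spread and turned to 4.69 points without WT 1.

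Each mouse largely kept its own profile over the first 3 times. Igha took 35.7%, 38.5% and 39.1% of the heavy chain counts of WT 1 at 0, 3 and 6 h. In the other 5 mice Igha took 6.74 to 17.9% at these times, the most in Aim2-/- 4 (17.9%, 15.3% and 15.1%). Ighg3 took 16.6%, 19.1% and 13.0% in WT 4 and stayed between 2.61% and 7.97% elsewhere. Ighg2b took 12.7%, 14.8% and 11.9% in Aim2-/- 1 and 12.1%, 15.6% and 13.8% in Aim2-/- 2, and 3.28 to 10.8% in the remaining mice. The largest relative departure from a mouse's profile was that of Ighg1 in WT 3. It was at 0.879, 0.614 and 0.463 CPM at 0, 3 and 24 h but at 18.4 CPM at 6 h (3.22% of heavy chain counts, against 0.110 to 0.123% at the other times). In the same mouse Ighg2b was at 28.3, 18.2 and 38.9 CPM, Ighg2c at 26.5, 33.3 and 33.5 CPM, Ighg3 at 32.4, 26.0 and 36.5 CPM and Igkc at 363, 273 and 311 CPM at 0, 3 and 6 h. The share of the 4 IgG genes together was 12.3%, 14.1% and 22.3%.

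**Figure D2:**
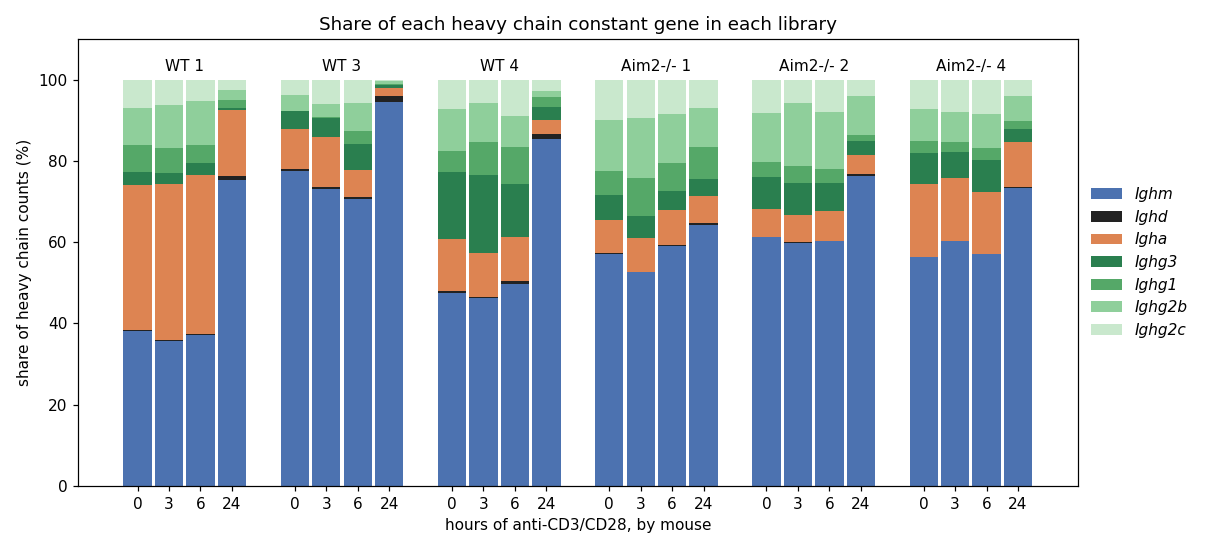
Share of each heavy chain constant gene in the heavy chain counts (vertical axis, %) for every library; bars are grouped by mouse and ordered by hours of stimulation. The orange Igha part is largest in WT 1 (35.7 to 39.1% at 0 to 6 h), the dark green Ighg3 part in WT 4 at the same times (13.0 to 19.1%), and the blue Ighm part is larger at 24 h than at 6 h in every mouse.

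Light chain use also differed between mice. The lambda constant genes Iglc1, Iglc2, Iglc3 and Iglc4 together made up 10.6 to 13.3% of light chain counts in WT 1 over the 4 times, 5.91 to 7.23% in Aim2-/- 4, 2.87 to 6.75% in WT 3 and WT 4 and 1.88 to 3.42% in Aim2-/- 1 and 2. Iglc1 was at 117, 10.5 and 7.81 CPM in WT and at 114, 57.0 and 268 CPM in Aim2-/- at 0 h, and its log2 fold change of 1.70 ± 1.20 did not pass the test (edgeR adjusted p = 0.40), whereas without WT 1 it was 4.00 ± 0.94 and did (adjusted p = 0.022). Iglc3 was at 1.30, 2.12 and 0.710 CPM in WT and at 13.8, 14.0 and 103 CPM in Aim2-/-, a log2 fold change of 4.98 ± 1.10 (edgeR adjusted p = 0.017), or 4.95 ± 1.36 (adjusted p = 0.042) without WT 1. Iglc2 had a log2 fold change of 2.42 ± 0.72, which missed the threshold at 0 h (edgeR adjusted p = 0.053) and passed it at 6 h (2.88 ± 0.72, adjusted p = 0.017). Without WT 1 Iglc2 passed at both times (3.12 ± 0.75, adjusted p = 0.024, at 0 h). Ighe, the epsilon heavy chain of IgE, reached 2.81 CPM in Aim2-/- 1 at 0 h and lay at or under 0.0492 CPM in the other 5 unstimulated libraries, and Iglc4 was at or under 0.0517 CPM in all 6. Neither passed the filter on low counts.

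After 24 h of stimulation the levels of most of these genes were a small part of those at 0 h, except for Ighm in WT cells and Ighd in both genotypes. Igkc was at 105, 20.2 and 45.4 CPM in WT 1, 3 and 4 at 24 h, which is 10.9%, 5.58% and 12.4% of the 0 h level of the same mouse. In Aim2-/- 1, 2 and 4 it was at 1564, 364 and 577 CPM, or 24.7%, 9.35% and 11.1%. The log2 fold change was -3.31 ± 0.70 in WT and -2.62 ± 0.67 in Aim2-/-. Jchain, Igha, Ighg2b, Ighg2c and Ighg3 ended at 4.08 to 20.2% of the 0 h level in every mouse, apart from Jchain in Aim2-/- 1 at 30.1%, and Ighg1 ended at 5.35 to 52.6%. Of the 9 genes 6 in WT and 7 in Aim2-/- were called lower at 24 h than at 0 h, beside 34.8% and 33.5% of all tested genes, and these contrasts too were part of the choice.

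Ighm behaved otherwise in WT. It was at 431, 371 and 325 CPM in WT 1, 3 and 4 at 24 h, which is 58.4%, 66.7% and 95.2% of the 0 h level, while in Aim2-/- 1, 2 and 4 it was at 1578, 707 and 845 CPM, or 26.1%, 16.3% and 17.3%. The 2 sets of percentages did not overlap. The log2 fold change from 0 to 24 h was -0.54 ± 0.39 in WT (-0.37 ± 0.36 without WT 1) and -2.29 ± 0.41 in Aim2-/-. The difference between genotypes in Ighm was smaller at 24 h, with a log2 fold change of 1.47 ± 0.40 against 2.90 to 3.22 at the earlier times (1.58 ± 0.35 against 3.49 to 3.59 without WT 1). That of Igkc was 3.87 ± 0.72 at 24 h and 2.73 to 3.29 before (4.67 ± 0.58 and 3.76 to 4.00 without WT 1). At 3 and 6 h Ighm had been at 854, 406 and 268 and at 687, 403 and 272 CPM in WT and at 4496, 2702 and 4180 and at 5248, 3576 and 3397 CPM in Aim2-/-, all above the 24 h values of the same Aim2-/- mice.

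Ighd was higher at 24 h than at 0 h in all 6 mice, though on few reads. It was at 5.67, 6.37 and 5.29 CPM in WT and at 9.24, 5.39 and 3.95 CPM in Aim2-/- at 24 h, or 147%, 216% and 209% and 110%, 267% and 136% of the 0 h level. The groups overlapped, as they did at 3 and 6 h, and the log2 fold changes were 0.89 ± 0.55 in WT and 0.48 ± 0.54 in Aim2-/-. Ighm counts exceeded Ighd counts at 24 h by 58.3 to 75.9 times in WT and by 131 to 214 times in Aim2-/-.

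**Figure D3:**
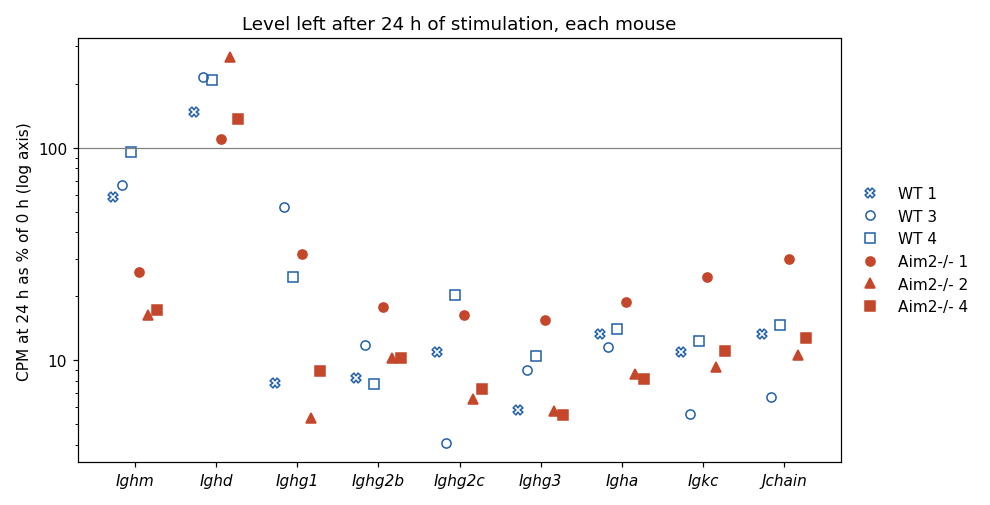
CPM at 24 h as a percentage of CPM at 0 h in the same mouse (vertical log axis) for each of the 9 genes; symbols as in the plot of CPM by time, and the grey line marks no change (100%). Ighm in the WT mice (58.4 to 95.2%) and Ighd in all mice (110 to 267%) lie above most other values, and Ighm in the Aim2-/- mice lies at 16.3 to 26.1%.

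The balance of chains differed between 24 h and the earlier times. The ratio of Ighm to Igkc, each per kilobase, was 0.27, 0.55 and 0.33 in WT 1, 3 and 4 and 0.34, 0.40 and 0.33 in Aim2-/- 1, 2 and 4 at 0 h, and stayed within 0.25 to 0.55 in all libraries up to 6 h. At 24 h it was 1.46, 6.54 and 2.55 in WT and 0.36, 0.69 and 0.52 in Aim2-/-, so that Ighm led Igkc in the 3 WT libraries and in none of the Aim2-/- libraries. The switched isotypes stayed closer to the light chain. Their summed ratio to Igkc, per kilobase, was 0.60, 0.21 and 0.49 in WT at 0 h and 0.62, 0.38 and 0.54 at 24 h, and 0.34 to 0.35 and 0.25 to 0.28 in Aim2-/-.

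Jchain was also low against the sum of Ighm and Igha in WT at 24 h, a sum that holds the retained Ighm. Jchain itself ended at 13.3%, 6.69% and 14.6% of its 0 h level in WT 1, 3 and 4. Igha ended at 13.3%, 11.6% and 14.0%, and Ighm at 58.4%, 66.7% and 95.2%. The ratio is therefore not a result apart from that of Ighm. Its ratio to the sum of Ighm and Igha, per kilobase, the 2 chains whose tails carry the cysteine shown above, was 0.072 to 0.10 in WT and 0.071 to 0.12 in Aim2-/- from 0 to 6 h. At 24 h it was 0.040, 0.0091 and 0.016 in WT 1, 3 and 4 and 0.13, 0.054 and 0.092 in Aim2-/- 1, 2 and 4. The WT values at 24 h lay below every earlier WT value, and the 24 h groups did not overlap.

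The switched share moved with these changes. At 24 h it was 23.6%, 4.03% and 13.3% in WT 1, 3 and 4 and 35.3%, 23.2% and 26.4% in Aim2-/- 1, 2 and 4, lower than at 6 h in all 6 mice. The mean was 13.7% ± 9.80 in WT and 28.3% ± 6.30 in Aim2-/- (SD, n = 3), a difference of 14.6 points, or 19.6 points without WT 1, although WT 1 and Aim2-/- 2 overlapped. Weighted by transcript length, the difference was 17.4 points at 24 h and -2.63 points at 0 h.

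**Figure D4:**
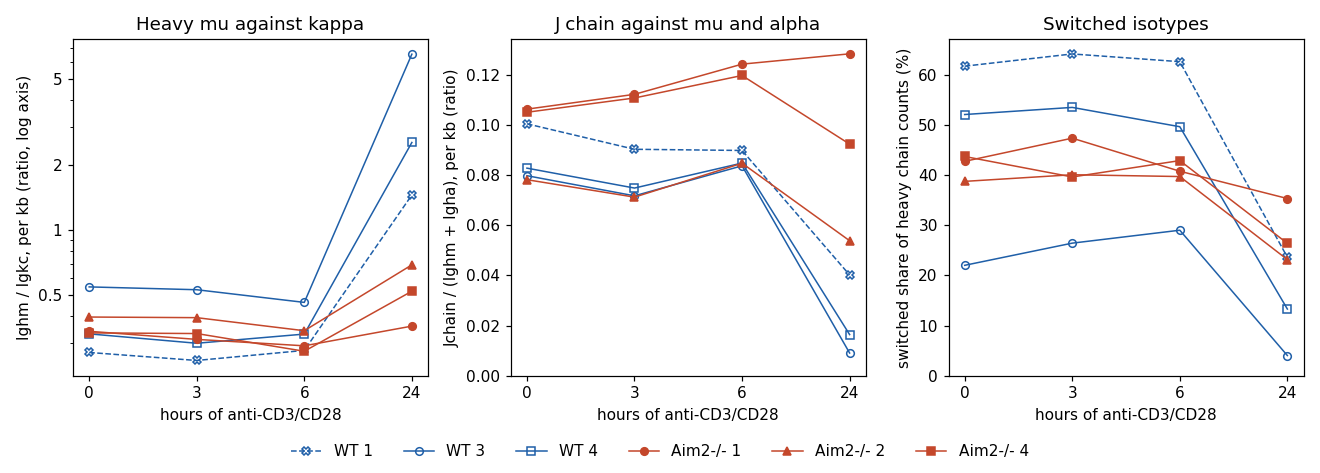
Left, ratio of Ighm to Igkc, each as CPM per kilobase (log axis); middle, ratio of Jchain to the sum of Ighm and Igha on the same scale (axis from 0); right, share of the switched isotypes in heavy chain counts (%, axis from 0), all against hours of stimulation with 1 line per mouse. From 6 to 24 h the WT lines climb to 1.46 to 6.54 in the left panel and drop to 0.0091 to 0.040 in the middle panel, while the Aim2-/- lines move less.

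Genes of the cells that make antibody were examined from lists, and these genes were tested. The lists were chosen with earlier results of these data known, so their counts and p-values are not independent of that choice. At 0 h, 4 of 15 tested B cell genes passed the test, all higher in Aim2-/-, beside 3.24% of all genes tested, and the median log2 fold change of the list was 1.45. They were Cd79a and Cd79b, which carry the signal of the B cell receptor, the adaptor Blnk, and Tnfrsf13c, the receptor for the survival factor BAFF, named here because they passed. Cd79a was at 1.75, 1.03 and 0.913 CPM in WT and at 10.3, 3.25 and 3.99 CPM in Aim2-/- (log2 fold change 2.24 ± 0.52, edgeR adjusted p = 0.021). The same 4 genes passed without WT 1, with Cd79a at 2.58 ± 0.64 (edgeR adjusted p = 0.029). The 4 B cell genes with the most reads included Cd79b (2.16 ± 0.53, edgeR adjusted p = 0.028) and 3 that did not pass the test, Pou2af1 (0.53 ± 0.29), Cd72 (0.10 ± 0.22) and Cd22 (0.18 ± 0.42).

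Markers that define B cells, Ms4a1 and Pax5, were near the floor of detection in most libraries. At 0 h Ms4a1, which encodes CD20, was at 0.05, 0.0517 and 0.101 CPM in WT and at 0.872, 0.345 and 0.345 CPM in Aim2-/-. Pax5, the factor that keeps B cell identity, was at 0.500, 0.207 and 0.152 CPM in WT and at 2.08, 0.246 and 0.0492 CPM in Aim2-/-. Aim2-/- 1 was the highest library for both of these genes and for Ighd. Neither passed the test (edgeR adjusted p = 0.28 and 0.54, or 0.45 and 0.52 without WT 1). Summed over the 18 listed B cell genes, the 0 h level was 46.9 to 57.4 CPM for WT mice and 66.3 to 124 CPM for Aim2-/- mice, and Ms4a1, Ebf1 and Vpreb3 lay at or under 3 counts in every WT library.

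Plasma cell genes were higher in Aim2-/- at 0 h in 8 of 14 tested, beside 3.24% of all genes tested. The median log2 fold change over the list was 0.67. Mzb1, a chaperone of IgM assembly, was at 2.95, 1.71 and 0.963 CPM in WT and at 27.7, 11.5 and 14.5 CPM in Aim2-/- (log2 fold change 3.25 ± 0.64, edgeR adjusted p = 0.0098). Sdc1, which encodes the plasma cell surface marker CD138, was at 7.10, 4.19 and 4.46 CPM in WT and at 17.0, 10.1 and 13.9 CPM in Aim2-/- (1.38 ± 0.37, adjusted p = 0.036). The others that passed were Derl3, Fkbp11, Creld2 and Txndc5, which serve folding and disposal of secreted proteins, and the elongation factors Eaf2 and Ell2. Of the 4 genes of this list with the most reads, Txndc5 passed (0.49 ± 0.08, edgeR adjusted p = 0.0024), and Irf4 (-0.19 ± 0.20), Xbp1 (0.28 ± 0.11) and Sec11c (0.12 ± 0.14) did not. The summed level of the list was 772 to 898 CPM in WT and 955 to 1106 CPM in Aim2-/-, most of it from Irf4, Xbp1 and other genes that T cells also express. Without WT 1 the count was 6 of 14, since Derl3, Fkbp11 and Ell2 no longer passed and Tnfrsf17, the receptor BCMA, did, with Mzb1 at 3.74 ± 0.67 (edgeR adjusted p = 0.0051) and Sdc1 at 1.66 ± 0.32 (adjusted p = 0.0074). The part of B lineage cells in the difference between genotypes was not tested.

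**Figure D5:**
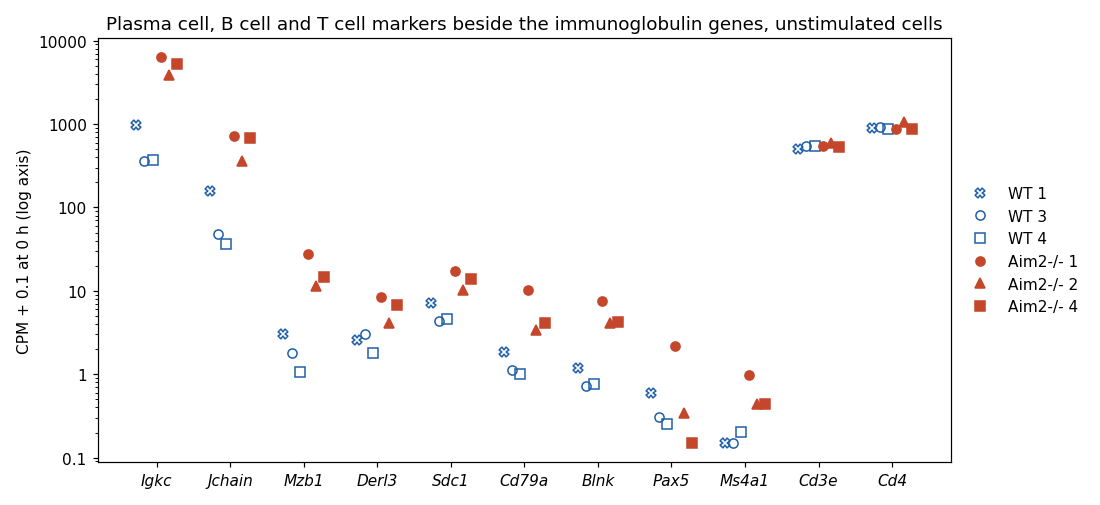
CPM plus 0.1 (vertical log axis) in each of the 6 unstimulated libraries for Igkc and Jchain, for plasma cell genes (Mzb1, Derl3, Sdc1), B cell genes (Cd79a, Blnk, Pax5, Ms4a1) and T cell genes (Cd3e, Cd4); symbols as in the plot of CPM by time. For the genes from Igkc to Blnk and for Ms4a1 the Aim2-/- symbols lie above the WT symbols. Pax5 sits near the bottom except in Aim2-/- 1 (2.08 CPM), and Cd3e and Cd4 lie level.

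Over all lists of the antibody pathway together (68 genes, 59 tested), 16, 0, 22 and 5 genes passed the test between genotypes at 0, 3, 6 and 24 h, beside 5.23%, 0.294%, 15.8% and 0.666% of all genes tested. Of these, 16, 0, 19 and 5 were higher in Aim2-/-. At 3 h, where edgeR called 0, 29 genes had an unadjusted p under 0.05, DESeq2 called 12 and limma-voom 0. Without the mouse WT 1 the 4 counts were 18, 10, 20 and 6. They depended on which mice entered the fit: they were 1, 0, 2 and 0 without WT 4, 2, 0, 1 and 0 without WT 3, 5, 0, 7 and 0 without Aim2-/- 4, 10, 1, 8 and 2 without Aim2-/- 1, and 23, 23, 29 and 21 without Aim2-/- 2. The share of all tested genes called by the other tools or with a mouse left out is not given here. Counts from those fits are therefore not set against it. Among B cell genes 4, 0, 5 and 1 passed at the 4 times, all higher in Aim2-/-, and 4, 2, 4 and 0 without WT 1. At 3 h, 6 of them had an unadjusted p under 0.05, and DESeq2 called 4 and limma-voom 0.

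Genes of class switching and of the germinal centre were mostly near the floor or shared with dividing cells. The germinal centre genes Rgs13 and Gcsam lay at or under 3 counts in every library of both genotypes at 0 and 24 h. Of the 7 tested genes of this list edgeR, DESeq2 and limma-voom called 0 between genotypes at 0 h, with 2 at an unadjusted p under 0.05. At 6 h Mef2b was higher and the mismatch repair gene Msh6 lower in Aim2-/-, and neither passed without WT 1 (edgeR adjusted p = 0.10 and 0.12). From 0 to 24 h, 5 rose and 1 fell in each genotype, beside 71.4% and 70.3% of all genes tested that changed in either direction. Those that rose included the repair genes Ung (log2 fold change 3.52 ± 0.22 in WT and 3.36 ± 0.22 in Aim2-/-), Msh6 and Exo1 (5.08 ± 0.29 and 4.03 ± 0.27), all of which also serve DNA replication in dividing cells.

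Of 10 genes for the T cell signals that direct switching, edgeR, DESeq2 and limma-voom called 0 between genotypes at 0 h, with 2 at an unadjusted p under 0.05. Without WT 1 edgeR called 3 higher in Aim2-/-, Icos (0.55 ± 0.12, adjusted p = 0.018), Il10 (1.56 ± 0.35, adjusted p = 0.018) and Cxcr5 (0.67 ± 0.16, adjusted p = 0.022). The share of all tested genes called in that fit is not given here, so nothing is read from this count. Cd40lg, the ligand of CD40, was lower in Aim2-/- at 6 h (log2 fold change -0.99 ± 0.19, edgeR adjusted p = 0.0056, or -0.98 ± 0.20 and 0.011 without WT 1). It was the 1 gene of the 10 that edgeR called at 6 h, beside 15.8% of all genes tested called in either direction. Icos fell from 0 to 24 h in both genotypes (-1.70 ± 0.14 and -1.80 ± 0.14) and Ifng rose (2.78 ± 0.46 and 3.56 ± 0.47). Genes for receptors of antibody Fc parts were higher in Aim2-/- in 3, 0, 5 and 3 of 10 tested at the 4 times (2, 1, 4 and 2 without WT 1), beside 3.24%, 0.254%, 8.78% and 0.659% of all genes tested. At 3 h, where edgeR called 0 of them, 6 had an unadjusted p under 0.05, DESeq2 called 4 and limma-voom 0. The genes of this list with the most reads were Ms4a2, the beta chain of the IgE receptor (2.69 ± 0.65 at 0 h, edgeR adjusted p = 0.025), Fcer1g (1.45 ± 0.60, adjusted p = 0.15), Fcgr3 (1.01 ± 0.60, adjusted p = 0.31) and the inhibitory receptor Fcgr2b (1.60 ± 0.64, adjusted p = 0.13), of which Fcgr3 and Fcgr2b passed the test at 6 h. Without WT 1 Ms4a2 passed at 0 h (3.09 ± 0.82, edgeR adjusted p = 0.037), and at 6 h Fcgr3 did and Fcgr2b did not (adjusted p = 0.0068 and 0.058).

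Some markers of further cell types also differed between genotypes. At 0, 3, 6 and 24 h, 3.24%, 0.254%, 8.78% and 0.659% of all tested genes were called higher in Aim2-/-. Fcer1a and Ms4a2 stand both in the list of Fc receptor genes above and in that of basophil and mast cell markers, so their calls count in both. Basophil and mast cell markers were called higher in 5, 3, 5 and 5 of 5 genes (5, 3, 5 and 4 without WT 1), with summed levels at 0 h of 7.20 to 9.98 CPM in WT and 53.3 to 102.3 CPM in Aim2-/-. Unlike most of the antibody genes these were not lower at 24 h in their median sums, at 9.55 and 12.2 CPM in WT and 76.8 and 88.9 CPM in Aim2-/- at 0 and 24 h. The sum fell in WT 3, from 9.98 to 6.94 CPM, and in Aim2-/- 2, from 53.3 to 45.2 CPM, and rose in the other mice. Neutrophil markers were called higher in 2, 1, 2 and 1 of 4 tested, with and without WT 1, with sums at 0 h of 23.7 to 27.0 and 101 to 249 CPM and Ly6g at or under 3 counts in every library of 0 and 24 h. Most of each 0 h sum was Mpo, at 20.8, 16.4 and 23.8 CPM in WT and at 182, 85.2 and 111 CPM in Aim2-/-. Elane groups did not overlap either. S100a9 was at 0, 3.36 and 0.101 CPM in WT and at 25.1, 1.48 and 1.33 CPM in Aim2-/-, and its groups overlapped, as did those of S100a8. Macrophage and monocyte markers summed to 37.5 to 59.3 CPM in WT and to 103 to 340 CPM in Aim2-/- at 0 h (1 of 7 called, 0 without WT 1). Dendritic cell markers summed to 12.04 to 18.7 and 22.2 to 48.8 CPM (1 of 4 called, also without WT 1). Most of each dendritic cell sum was Zbtb46, whose groups did not overlap, nor did those of Siglech, on few WT counts. Xcr1 was not higher in Aim2-/-, at 0.55, 1.03 and 1.06 CPM in WT and at 0.436, 0.739 and 0.788 CPM in Aim2-/-. Flt3 and Clec9a groups overlapped. Erythroid markers summed to 7.71 to 71.8 and 21.1 to 337 CPM. For erythroid markers edgeR called 0 of 6 at 0 h, with 4 at an unadjusted p under 0.05, and DESeq2 called 1 and limma-voom 0. The part of these cells in the antibody gene values was not tested.

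Markers of the labelled cell type were high in all 6 unstimulated libraries. CD4 T cell markers summed to 5627 to 5832 CPM in WT and to 5721 to 5975 CPM in Aim2-/- at 0 h. For these 9 genes edgeR, DESeq2 and limma-voom called 0 between genotypes at 0 h, with 2 at an unadjusted p under 0.05. Their 4 genes with the most reads, Trac, Trbc2, Lck and Cd4, had log2 fold changes of 0.13 ± 0.12, -0.02 ± 0.13, -0.09 ± 0.10 and 0.05 ± 0.14. CD8 T cell markers summed to 8.12 to 11.4 CPM and NK cell markers to 10.7 to 25.8 CPM over all 6 libraries, and the 3 tools called 0 of 2 and 0 of 4 of them, with 0 at an unadjusted p under 0.05.

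From 0 to 24 h the B lineage genes did not move as one. Mzb1 fell with the antibody genes in WT (log2 fold change -2.67 ± 0.81, edgeR adjusted p = 0.0058) and in Aim2-/- (-2.18 ± 0.60, adjusted p = 0.0029), and so did Cd79a and Blnk. Of 15 B cell genes 6 fell in WT, and 6 fell and 1 rose in Aim2-/-, beside 71.4% and 70.3% of all genes tested that changed in either direction. Of 14 plasma cell genes 6 rose and 6 fell in WT, and 5 rose and 6 fell in Aim2-/-. Irf4, which activated T cells also express, rose (2.12 ± 0.21 and 1.89 ± 0.20), and Xbp1 fell (-0.37 ± 0.11 and -0.43 ± 0.11). The lambda genes Iglc1 (-3.12 ± 1.37 in WT, -2.97 ± 1.27 in Aim2-/-) and Iglc3 (-2.83 ± 1.71, -2.93 ± 0.96) had changes like that of Igkc, with large errors, and Iglc3 did not pass the test in WT (edgeR adjusted p = 0.14).

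The genes whose pattern was most like each member's were sought by Pearson's r of log2 CPM over the 24 libraries, after the mean of each time point was subtracted, among 12177 other genes. The libraries share mice and the genotype difference, so r is a description. The nearest to Igkc were Penk (0.981), Mzb1 (0.981) and Ly6d (0.975), and the nearest to Jchain were Smim3 (0.976) and Mzb1 (0.975). Ighm lay closest to Ly6d (0.958), Rasgrp3 (0.957) and Cacna1h (0.945). For the IgG genes the closest were Slc7a10 (0.944), Vill and Ttc39c to Ighg1, Lmtk3 (0.964), Sdcbp2 and Samd11 to Ighg2b, Penk (0.970), Smim3 and Ttc39c to Ighg2c, and Mpo (0.931) and Zcchc18 to Ighg3. Igha lay closest to Ifi204 (0.947), Il1r2 and Il10, and Ighd to Klf10 (0.870), Ltbp3 and Zfp523. Among the members, r ranged from 0.650 to 0.988 (median 0.892) over the 28 pairs without Ighd and from 0.294 to 0.515 over the 8 pairs with Ighd.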

How the data were processed

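The authors aligned 51-base single-end reads of stranded mRNA libraries with STAR to GRCm38 and counted them by gene. The values they deposited are these raw counts, with no scaling. The submitters' processing notes also name DESeq2 and edgeR. How counting used strand or shared reads was not given in the sources used here. Symbols came from a GENCODE annotation of that build (54409 of 54446 IDs matched), and sequences were read from its transcripts. Groups followed the labels.

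The main fit was edgeR 4.0.16 (R 4.3.3, limma 3.58.1) quasi-likelihood, which gave each of the 8 groups a mean of its own, with TMM scaling, all 24 libraries and filterByExpr (minimum count 10), with Benjamini-Hochberg adjustment over 15325 genes and a threshold of 0.05. Log2 CPM used a prior count of 2. The fit was tested on simulated data. Alternatives were other scalings and filters, DESeq2 1.42.0, limma-voom (which the study's methods name for another kind of count), the compared libraries alone, replicate blocks and each mouse left out. The labels give the mouse of each library, and libraries of a mouse deviated together over time (r 0.139 to 0.567 in 36 pairs).

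The members and lists were chosen with earlier results of these data known. Genes named are the members, Aim2, the other constant genes, up to 4 tested genes with the highest mean CPM of each list, and the 3 genes most like each member; some genes that this rule names are not reported here. Macrophage and monocyte, dendritic cell, neutrophil, basophil and mast cell, erythroid, CD8 T cell and NK cell markers are given mainly by counts and sums. Cd79a, Blnk, Tnfrsf13c, Ms4a1, Pax5, Mzb1, Sdc1 and further genes outside this rule were named after their values were seen.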

Additional observations from a re-analysis of the deposited data

Results flagged for a closer look

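Fcgr2b, the inhibitory receptor for IgG, moved in opposite directions in the 2 genotypes between 0 and 24 h, with a median log2 change of -0.94 over the 3 WT mice and of 0.35 over the 3 Aim2-/- mice. It was at 1.00, 1.71 and 1.57 CPM in WT 1, 3 and 4 at 0 h and at 0.963, 0.463 and 0.770 CPM at 24 h, the step in WT 1 being from 20 to 19 counts. In Aim2-/- 1, 2 and 4 it was at 7.36, 2.07 and 3.59 CPM at 0 h and at 14.2, 2.67 and 4.16 CPM at 24 h. The difference between the genotypes in this change was not tested.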

How the results depend on the processing

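Counts of called genes between genotypes depended on the fit. From 0 to 24 h the counts of antibody pathway genes and of B cell genes stayed within 1.5 times under all alternatives. Counts of smaller lists did not all do so. Of the other immunoglobulin constant genes in WT, edgeR called 2, DESeq2 3 and limma-voom 0. Antibody pathway genes called at 0, 3, 6 and 24 h numbered 16, 0, 22 and 5; without the filter on low counts they numbered 28 at 0 h, 18 at 3 h and 18 at 24 h, with DESeq2 12 at 3 h and 12 at 24 h, and at 24 h they numbered 0 with limma-voom and 0 in the compared libraries alone. B cell genes numbered 4, 0, 5 and 1; limma-voom gave 2 at 0 h and 0 at 24 h, no filter 5 at 3 h and 2 at 24 h, DESeq2 4 at 3 h, and the compared libraries alone 2 at 6 h and 0 at 24 h. With 1 mouse left out, antibody pathway genes ranged from 1 to 23, 0 to 23, 1 to 29 and 0 to 21, and B cell genes from 0 to 4, 0 to 5, 0 to 7 and 0 to 4. The cause was not tested.

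Mouse numbers 1 and 4 occur in both genotypes, but same-numbered mice share a number alone (r -0.165 to 0.268 in 8 pairs). With that number as replicate block, antibody pathway genes called numbered 34, 32, 38 and 34 and B cell genes 8, 10, 11 and 10 at the 4 times. With the mouse as replicate block, the 24 h counts were 47 (WT) and 46 (Aim2-/-), against 40 and 39, and for B cell genes 8 and 9, against 6 and 7, so that block changed no call count by over 1.5 times.

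The switched share difference, -3.53, -5.67, -5.96 and 14.6 points at the 4 times, ranged from -15.2 to 4.69, -16.5 to 2.39, -15.0 to 1.80 and 9.83 to 19.6 points with 1 mouse left out, and turned positive without WT 1 at 0, 3 and 6 h. Weighting by transcript length was chosen after seeing the data. Of 756 recomputed log2 fold changes of the 9 genes, 4 had the other sign, all of them of Ighd. Depth limits Ighd, Ighe and the B cell markers, many of which lay at or under 3 counts.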
